A study of Mus musculus with 18 samples.

Results

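The 10 genes described here are transcripts that mark non-classical, or patrolling, monocytes of the mouse: Ear2, Eno3, Treml4, Ace, Spn, Adgre4, Cd9, Pglyrp1, Apoc2 and Fabp4. They were taken by symbol, and each matched 1 row of the 55416 genes in the deposited count table. All 10 were abundant enough to be tested, among 17040 genes that were. Messenger RNA was sequenced from splenic monocytes obtained by cell sorting on day 3, in 18 libraries that form 6 groups of 3 mice. Wild-type (WT) mice are labelled C57BL/6, and the other mice lack either Dectin-1 or FcgRIIb. Mice of each genotype received either phosphate-buffered saline (PBS) or IVIg, the immunoglobulin preparation given to patients intravenously. Dectin-1, encoded by Clec7a, is a myeloid receptor for beta-glucan, and FcgRIIb, encoded by Fcgr2b, is the Fc gamma receptor that inhibits. The sort gate, the dose and route of IVIg, and the design of both knockout alleles are not given in the sources used here. The series asks how the absence of either receptor bears on the response of monocytes to IVIg.

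Mouse monocytes leave the bone marrow mostly as classical cells, which carry high Ly6C and CCR2 and enter inflamed tissue. Part of them convert to non-classical cells with low Ly6C, which crawl along the inner wall of blood vessels, survey the endothelium and clear debris. Conversion needs the nuclear receptor NR4A1 and is aided by C/EBP beta, and non-classical cells carry Fc gamma receptors that bind immunoglobulin G complexes. The 10 markers cover cell surface proteins, enzymes, and proteins that bind lipid or bacterial cell wall.

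Ear2 belongs to the eosinophil-associated ribonucleases, a gene family with recent copies, so reads of its copies can be hard to place. The stretch below is from the Ear2 coding sequence in GENCODE M21 (GRCm38 chr14:44102975-44103159, plus strand). It is shown because all 185 of its bases also occur in Ear10, and the 96 in capitals occur in Ear1 as well.

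Ear2 coding stretch: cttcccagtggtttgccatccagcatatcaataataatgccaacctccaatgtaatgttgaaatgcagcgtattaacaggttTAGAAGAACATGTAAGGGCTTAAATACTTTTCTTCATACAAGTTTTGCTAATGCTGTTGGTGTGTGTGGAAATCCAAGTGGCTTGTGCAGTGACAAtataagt

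Of the 670 stretches of 50 bases in the Ear2 transcript, 252 (37.6%) occur in at least 1 of Ear1, Ear6, Ear10 and Ear14. In the counts, those 4 genes together came to between 0% and 4.30% of Ear2 in a library, the highest share being in Dectin-1 knockout IVIg replicate 2. How reads of the shared stretches were split among the copies cannot be seen in the counts, so Ear2 values are uncertain.

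Ear2 and Cd9 were the pair of markers whose levels were most alike over the libraries, as given further on, and the 250 bases before their transcription starts are shown for that reason (RefSeq, GRCm38.p6). The Ear2 sequence is chr14:44102404-44102653 on the plus strand, and that of Cd9 is chr6:125494761-125495010 on the minus strand.

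Ear2 promoter: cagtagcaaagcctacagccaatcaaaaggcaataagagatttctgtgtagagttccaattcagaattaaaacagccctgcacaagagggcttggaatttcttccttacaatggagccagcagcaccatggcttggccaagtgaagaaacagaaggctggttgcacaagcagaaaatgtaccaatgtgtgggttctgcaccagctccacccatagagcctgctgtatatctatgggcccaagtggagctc

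Cd9 promoter: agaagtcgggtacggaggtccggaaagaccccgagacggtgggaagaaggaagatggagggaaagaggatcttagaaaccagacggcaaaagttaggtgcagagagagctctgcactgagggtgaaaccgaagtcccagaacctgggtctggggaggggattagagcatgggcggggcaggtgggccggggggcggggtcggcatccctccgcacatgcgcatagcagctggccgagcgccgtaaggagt

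Each sequence was searched on both strands for AAAGGTCA (the NBRE element bound by NR4A1), TTGCGCAA (a C/EBP palindrome) and GAGGAAGT (a PU.1 core), and capitals would mark a match. These letters are not in the windows shown, nor in any of the 10 promoter entries that matched 9 of the markers. Over 32851 promoters, 1.34% hold the first motif, 0.164% the next and 2.44% the last. The Ear2 sequence has a GC content of 47.6%, and that of Cd9 of 61.6%.

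Total counts ran from 16996494 to 48958909 in 17 libraries, whereas FcgRIIb knockout PBS replicate 2 held 719494. Levels are given as CPM, counts scaled by library size to a common total. Clec7a stood at 0.247 to 4.05 CPM in the 6 libraries labelled Dectin-1 knockout, against 360.1 to 955 CPM in the other 12. Fcgr2b was measured at 129.8 to 249.7 CPM in the 6 libraries labelled FcgRIIb knockout and at 208 to 317 CPM in the others, so these ranges overlap and whole-gene counts do not check that label. Monocyte identity genes (Csf1r, Lyz2, Itgam, Spi1 and Cd68) summed to between 19010 and 38642 CPM in each library, mostly Lyz2 (14548 to 35160 CPM). Genes of classical monocytes, 12 in number, summed to between 8885 and 21203 CPM, so both kinds of monocyte transcript were present in each sorted sample. A bulk library cannot tell apart fewer cells of a type and less RNA per cell. Over 153 pairs of libraries, the highest Spearman correlation across genes (0.9885, given as a description) joined WT PBS replicate 3 to a library with the other treatment label, WT IVIg replicate 1. Codes in the titles, whose meaning is not given, are shared by Dectin-1 knockout PBS replicates 2 and 3, by FcgRIIb knockout PBS replicates 1 and 2, and across groups by FcgRIIb knockout PBS replicate 3 with the third WT IVIg library. Whether such libraries share an animal or a batch is not given, so p-values measure the spread between libraries that the series calls independent mice.

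**Figure D1:**
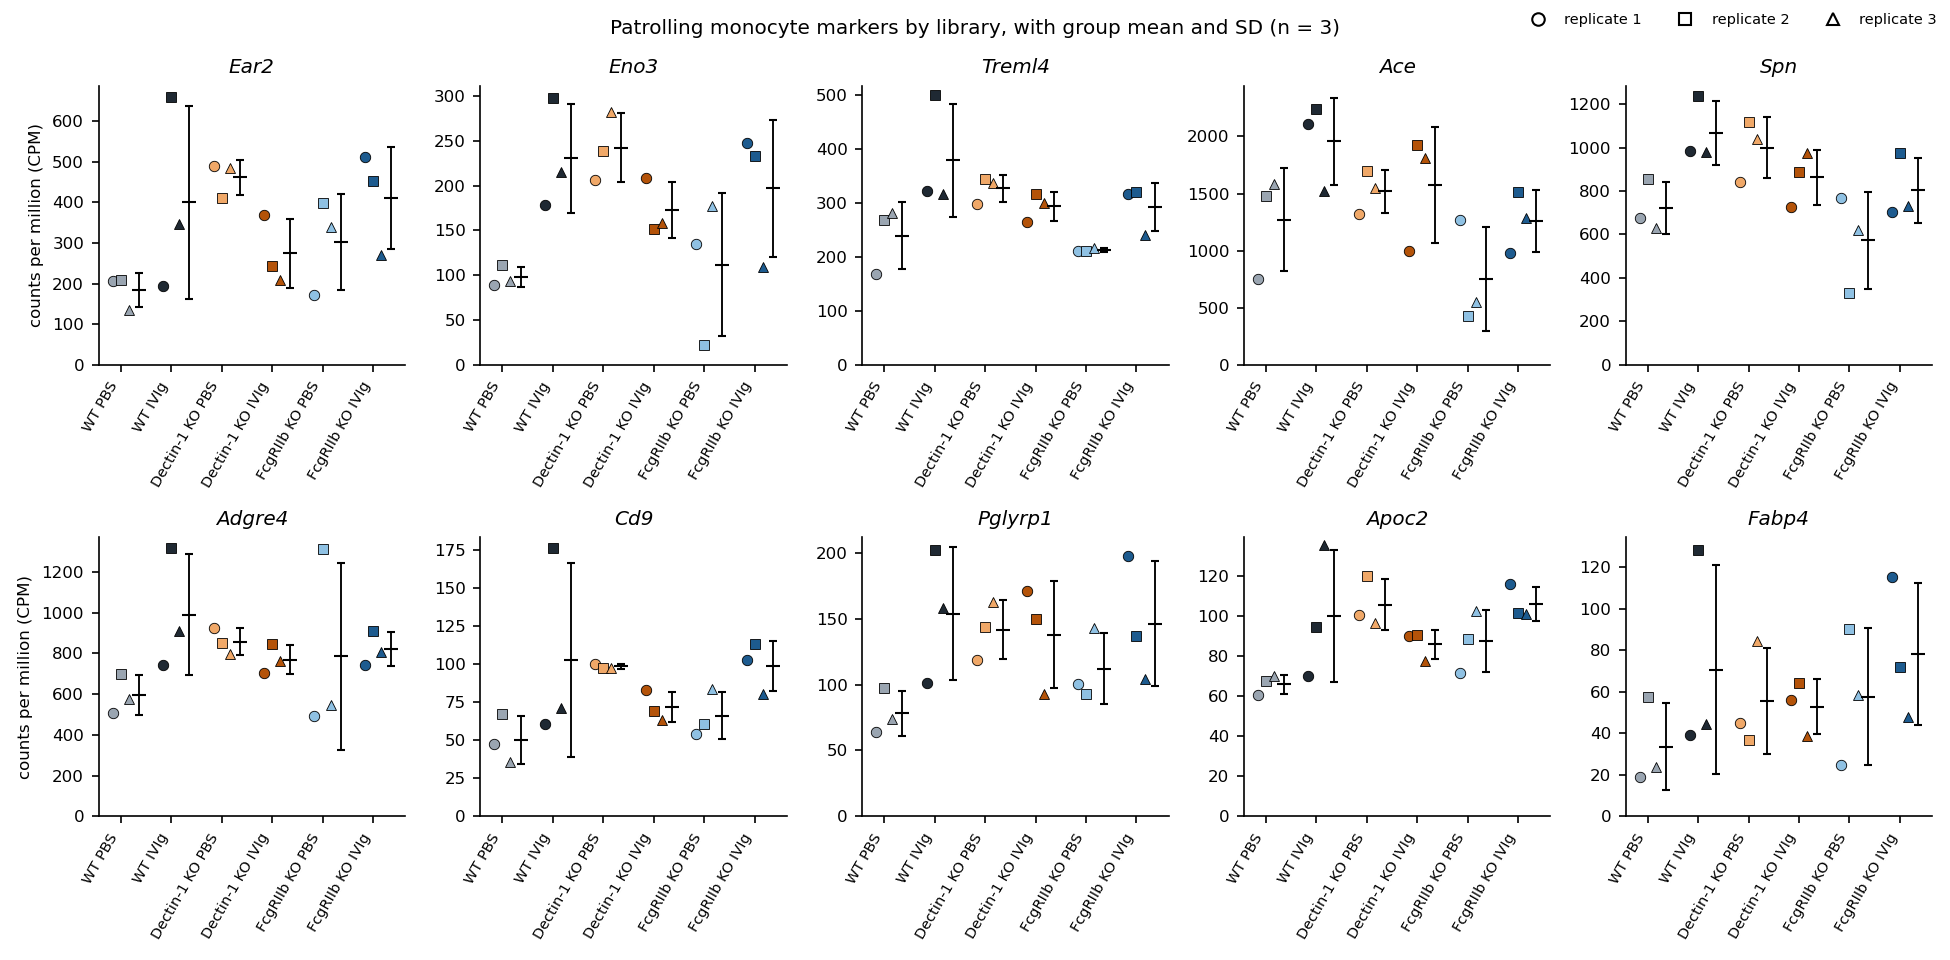
CPM of each of the 10 markers in the 18 libraries, by genotype and treatment (KO, knockout), on linear axes that start at 0. Points are libraries, symbols give the replicate number, and the bar beside each group is its mean with the SD (n = 3). WT IVIg replicate 2 is the highest library for 9 of the 10 markers, and for Apoc2 WT IVIg replicate 3 is.

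Among Spn, Adgre4, Treml4 and Cd9, grouped here as surface markers, Spn and Adgre4 were the most abundant by CPM. Ace is described below with the enzymes. Spn (ENSMUSG00000051457, chromosome 7, 126731404 to 126736995, minus strand) encodes CD43, a sialoglycoprotein that is dense on non-classical monocytes. Coordinates here are GRCm39, as the count file gives them. In WT mice Spn stood at 678, 857 and 632 CPM with PBS and at 983, 1238 and 979 CPM with IVIg. Dectin-1 knockout libraries had 843, 1116 and 1041 CPM of Spn with PBS and 725, 888 and 974 CPM with IVIg. For FcgRIIb knockout mice the Spn values were 767, 330.1 and 620.0 CPM with PBS and 701, 975.5 and 732 CPM with IVIg. The 3 WT IVIg libraries lay above all WT PBS libraries and above all Dectin-1 knockout and FcgRIIb knockout IVIg libraries, and the other pairs of groups at the same genotype overlapped.

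Adgre4 (ENSMUSG00000032915, chromosome 17, 56056984 to 56160662, plus strand) encodes an adhesion receptor with epidermal growth factor-like domains. WT libraries held 509, 699 and 579 CPM of Adgre4 with PBS and 741, 1319.9 and 912 CPM with IVIg. The Dectin-1 knockout values were 926, 854 and 797 CPM with PBS and 705, 844 and 761 CPM with IVIg. In FcgRIIb knockout mice Adgre4 stood at 492, 1315 and 548 CPM with PBS and at 746, 910.2 and 805 CPM with IVIg. WT PBS had the lowest mean, and no WT PBS library reached the lowest library of WT IVIg or of either Dectin-1 knockout group. The spread of the FcgRIIb knockout PBS group came from its library of low depth, where Adgre4 was measured at 1315 CPM (932 counts, Poisson 95% interval 1232 to 1402 CPM, counting error only).

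Treml4 (ENSMUSG00000051682, chromosome 17, 48571323 to 48582388, plus strand) encodes a receptor of the TREM-like family that binds dying cells. In WT mice Treml4 was measured at 168, 269 and 282 CPM with PBS and at 322, 501 and 316 CPM with IVIg. With Dectin-1 absent it stood at 299, 345 and 338 CPM with PBS and at 265, 317 and 301 CPM with IVIg. FcgRIIb knockout libraries gave 211, 210.2 and 217 CPM of Treml4 with PBS and 317, 321 and 241 CPM with IVIg. The IVIg libraries lay above the PBS libraries without overlap in WT and in FcgRIIb knockout mice, and the Dectin-1 knockout groups overlapped.

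Cd9 (ENSMUSG00000030342, chromosome 6, 125437229 to 125471754, minus strand) encodes a tetraspanin, a membrane protein that organises other surface proteins. It lies 3.97 Mb from Clec7a, the targeted gene of the Dectin-1 knockout. The WT values of Cd9 were 47.5, 67.5 and 35.8 CPM with PBS and 60.7, 176 and 71.2 CPM with IVIg. Dectin-1 knockout mice gave 100.5, 97.6 and 97.9 CPM with PBS, the tightest group (replicates 2 and 3 share a title code), and 82.8, 69.4 and 63.7 CPM with IVIg. FcgRIIb knockout mice gave 54.3, 60.7 and 84.1 CPM of Cd9 with PBS and 103, 113 and 80.8 CPM with IVIg. All Dectin-1 knockout PBS libraries exceeded all WT PBS and all Dectin-1 knockout IVIg libraries. A gene model on the opposite strand, Gm26728, covers 218 of the 2044 exon bases of Cd9, and the counts are not split by strand.

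Among the enzymes, Ear2 was the most abundant per exon length. Ear2 (ENSMUSG00000072596, chromosome 14, 44340111 to 44340991, plus strand) had 255 ± 58.3 RPKM (CPM per kilobase of exon; SD, n = 3) in WT PBS mice and 642 ± 61.0 RPKM in Dectin-1 knockout PBS mice, and it ranked first of the 10 markers by RPKM in each of the 6 groups. WT libraries held 206, 209 and 135 CPM of Ear2 with PBS and 194, 659.9 and 346 CPM with IVIg. Dectin-1 knockout libraries had 489, 411 and 484 CPM with PBS and 369, 244 and 209 CPM with IVIg. The FcgRIIb knockout values of Ear2 were 171, 399 and 338 CPM with PBS and 511, 451 and 271 CPM with IVIg. WT IVIg replicate 1 lay within the WT PBS range, so the WT groups overlapped, whereas Dectin-1 knockout PBS stood apart from WT PBS and from Dectin-1 knockout IVIg.

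Eno3 (ENSMUSG00000060600, chromosome 11, 70548028 to 70553339, plus strand) encodes beta-enolase, a glycolytic enzyme best known from muscle. Eno3 stood at 89.2, 111 and 93.7 CPM in WT mice with PBS and at 178, 297 and 216 CPM with IVIg. In Dectin-1 knockout mice it was measured at 206, 239 and 282 CPM with PBS and at 209, 152 and 159 CPM with IVIg. The FcgRIIb knockout libraries gave 135, 22.6 and 178 CPM of Eno3 with PBS and 248, 233 and 109 CPM with IVIg. WT PBS was the lowest and tightest group, below all libraries of WT IVIg and of both Dectin-1 knockout groups. The value of 22.6 CPM rests on 16 counts (Poisson 95% interval 12.9 to 36.7 CPM, counting error only).

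Ace (ENSMUSG00000020681, chromosome 11, 105858771 to 105880790, plus strand) encodes angiotensin-converting enzyme. The WT libraries held 751, 1478 and 1584 CPM of Ace with PBS and 2113, 2238 and 1526 CPM with IVIg. In Dectin-1 knockout mice Ace stood at 1320.1, 1697 and 1545 CPM with PBS and at 994, 1926 and 1807 CPM with IVIg. FcgRIIb knockout mice had 1271, 425 and 554 CPM of Ace with PBS and 975.2, 1516 and 1289 CPM with IVIg. Ace had the highest mean CPM of the 10 markers in each group but FcgRIIb knockout PBS, where Adgre4 did, and its libraries overlapped between PBS and IVIg in each genotype. Every FcgRIIb knockout IVIg library lay below every WT IVIg library. Gm11651, on the opposite strand, covers 295 of the 5287 exon bases of Ace.

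Among the secreted and lipid-binding markers, Pglyrp1 (ENSMUSG00000030413, chromosome 7, 18605256 to 18624384, plus strand) encodes a peptidoglycan recognition protein that is also stored in neutrophil granules. WT libraries gave 63.7, 97.3 and 73.6 CPM of Pglyrp1 with PBS and 101, 202 and 158 CPM with IVIg. In Dectin-1 knockout mice Pglyrp1 was measured at 119, 144 and 163 CPM with PBS and at 171, 149.9 and 93.1 CPM with IVIg. FcgRIIb knockout libraries had 101, 93.1 and 143 CPM of Pglyrp1 with PBS and 198, 137 and 104.4 CPM with IVIg. WT PBS lay below WT IVIg and below Dectin-1 knockout PBS without overlap.

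Apoc2 (ENSMUSG00000002992, chromosome 7, 19405504 to 19411866, minus strand) encodes apolipoprotein C-II, the activator of lipoprotein lipase. WT mice had 60.7, 67.4 and 70.0 CPM of Apoc2 with PBS and 70.2, 94.5 and 136 CPM with IVIg. Dectin-1 knockout values of Apoc2 were 101, 120.2 and 96.6 CPM with PBS and 90.0, 90.5 and 77.6 CPM with IVIg. In FcgRIIb knockout mice Apoc2 stood at 71.8, 88.9 and 103 CPM with PBS and at 116, 101 and 101 CPM with IVIg. The 3 WT PBS libraries were below all of the other 15. Gm44805, a gene model on the same strand, shares 646 of the 813 exon bases of Apoc2, and its counts were 100% to 100.4% of those of Apoc2, so the rows hold nearly the same reads.

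Fabp4 (ENSMUSG00000062515, chromosome 3, 10269148 to 10273636, minus strand) encodes a fatty acid-binding protein of adipocytes, macrophages and capillary endothelium. Its group means ran from 33.5 ± 21.04 CPM in WT PBS to 78.3 ± 34.2 CPM in FcgRIIb knockout IVIg (SD, n = 3), with libraries between 19.1 and 128.6 CPM. It had the largest relative spread in WT mice of the 10 markers, with an SD of 62.8% of the mean with PBS and 70.9% with IVIg, and all of its groups overlapped their neighbours in order. Its exon length of 4489 bases equals the span from its start to its end, so the exons counted cover the whole gene, and it came last of the 10 by RPKM in each group on that length.

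Ordered by mean, WT PBS was the lowest of the 6 groups for 7 markers (Ear2, Eno3, Adgre4, Cd9, Pglyrp1, Apoc2 and Fabp4), and FcgRIIb knockout PBS was the lowest for Treml4, Ace and Spn. Neighbours in that order overlapped, except that Dectin-1 knockout IVIg lay wholly above WT PBS for Adgre4 and Apoc2, and Dectin-1 knockout PBS wholly above Dectin-1 knockout IVIg for Cd9. WT PBS is the control of 3 of the comparisons below and enters both comparisons of response, so these share its libraries.

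**Figure D2:**
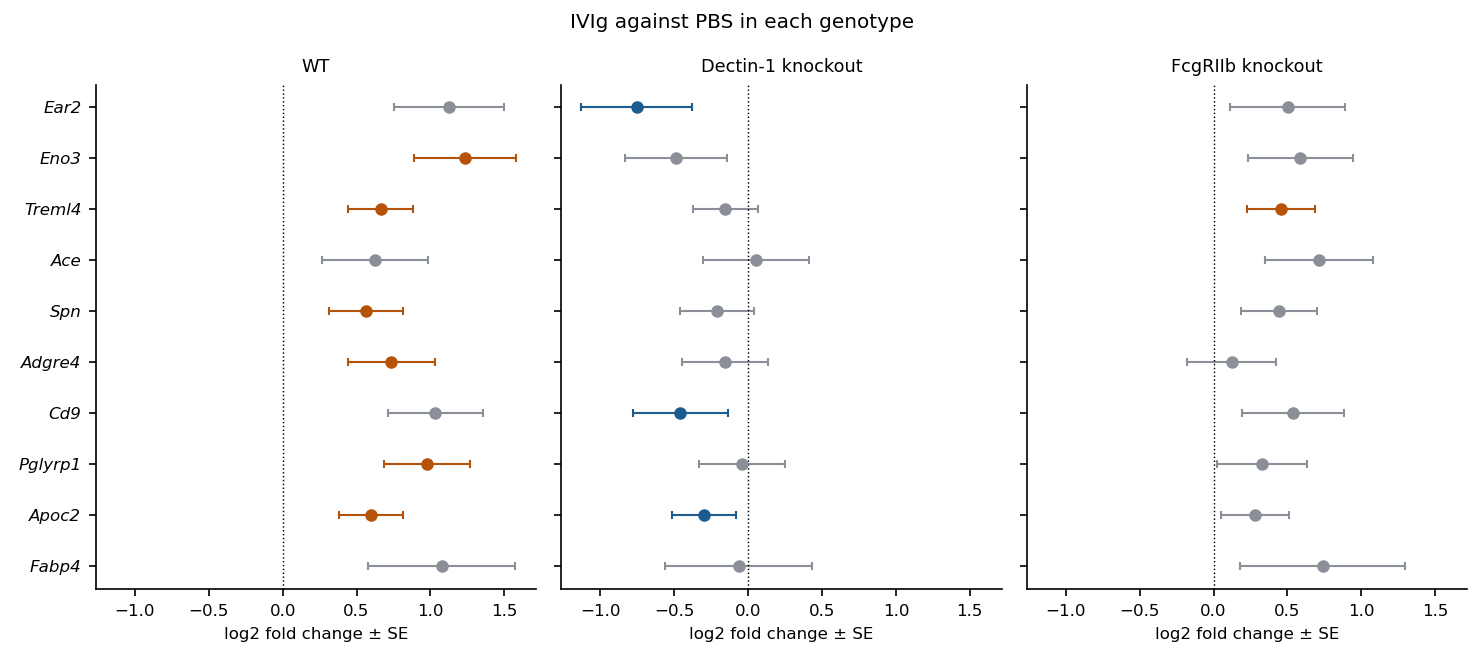
Log2 fold change of each marker in IVIg against PBS libraries, with its SE, in WT, Dectin-1 knockout and FcgRIIb knockout mice (3 libraries against 3, edgeR). Orange points are markers whose 3 IVIg libraries all lie above the 3 PBS libraries, blue points the reverse, and grey points overlap. All 10 values are above 0 in WT and in FcgRIIb knockout mice, and 9 of 10 are below 0 in Dectin-1 knockout mice.

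The first comparison asks what IVIg does to the markers in WT mice. All 10 had a higher mean with IVIg, by a median log2 difference of 0.86 against 0.01 over all genes tested, and the largest were Eno3 (1.23 ± 0.35 SE), Ear2 (1.13 ± 0.38) and Fabp4 (1.07 ± 0.50). In linear terms Eno3 was 2.35-fold and Ear2 2.18-fold its PBS level. Eno3 stayed the largest without WT IVIg replicate 2, at 1.01, followed by Pglyrp1 at 0.73. The places of Ear2 and Fabp4 rested on that library. Without it Ear2 was at 0.56, Cd9 at 0.39, Adgre4 at 0.47 and Treml4 at 0.41, and Fabp4, at 0.32, was the smallest of the 10. Ace was at 0.36 without WT PBS replicate 1, Apoc2 at 0.32 without WT IVIg replicate 3, and Fabp4 at 1.72 without WT PBS replicate 2. None of the 10 passed the adjusted threshold of 0.05 in edgeR's quasi-likelihood test (lowest adjusted p = 1), where 0.00587% of the genes, a single gene, passed. At an unadjusted p under 0.05, 9 markers were higher (all but Ace), against 1.39% of all genes tested, and DESeq2 gave 9 and limma voom 8 such markers with 0 called by either. Unadjusted p-values of edgeR ran from 0.0021 for Eno3 to 0.099 for Ace. For 6 markers (Eno3, Treml4, Spn, Adgre4, Pglyrp1 and Apoc2) no IVIg library reached down to a PBS library, as for 3.44% of all genes in that direction. Without WT IVIg replicate 2 the median was 0.50 and 3 markers had an unadjusted p under 0.05, and without WT PBS replicate 1 there were 5. Log2 fold changes over 5048 abundant genes were related to exon length (Spearman -0.416, across genes, which are not independent), and with that trend removed the median was 0.80 and Apoc2 was at 0.40. WT IVIg replicate 2 was also the library with the highest sum of the other non-classical genes (13114 CPM) and the lowest sum of classical genes (8885 CPM). It had the highest sum of dendritic cell genes as well (488 CPM), and the part of any of these in the marker values was not tested.

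Among Dectin-1 knockout mice, 9 of 10 markers had a lower mean with IVIg than with PBS and Ace did not (log2 difference 0.05 ± 0.36; -0.12 without Dectin-1 knockout IVIg replicate 2). Pglyrp1 (-0.04 ± 0.29) and Fabp4 (-0.06 ± 0.50) were near 0 as well. Pglyrp1 was at 0.18 without Dectin-1 knockout IVIg replicate 3, and Fabp4 at 0.37 without Dectin-1 knockout PBS replicate 3. The median was -0.19 against 0.02 over all genes, and Ear2 (-0.75 ± 0.37), Eno3 (-0.49 ± 0.34) and Cd9 (-0.46 ± 0.32) lay furthest from 0. No marker was called by edgeR, DESeq2 or limma voom, and 0% of all genes were called by edgeR. Nor did any reach an unadjusted p under 0.05 in edgeR, where 3.27% of all genes did, the nearest being Ear2 at 0.0575. DESeq2 gave 0 and limma voom 2 markers below that unadjusted level. With the exon length trend removed (Spearman 0.266 across genes) edgeR gave 1, Ear2. Leaving out 1 library at a time gave 0 to 1. The IVIg libraries of Ear2, Cd9 and Apoc2 lay below all PBS libraries, as for 4.42% of all genes. Neutrophil genes (8, among them S100a8 and Ly6g) summed to 503, 1292 and 54.6 CPM in the IVIg libraries and to 12.2, 38.1 and 40.9 CPM in the PBS libraries of this genotype, with Ly6g at most 5.30 CPM. Eosinophil genes (5, among them Prg2 and Epx) summed to 17.2, 48.7 and 3.04 CPM with IVIg against 2.57 to 6.63 CPM with PBS. Their part in the levels of Pglyrp1 and Ear2 was not tested. All 8 neutrophil genes also had a higher mean in Dectin-1 knockout than in WT mice with IVIg, where 1 of them was called, against 0.0528% of all genes.

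In FcgRIIb knockout mice the mean of all 10 markers was higher with IVIg. The median log2 difference was 0.48 against 0.01 over all genes, from 0.12 ± 0.30 for Adgre4 to 0.74 ± 0.56 for Fabp4. Without FcgRIIb knockout PBS replicate 1 the median was 0.29, Ear2 was at 0.18, Fabp4 at 0.26 and Ace at 1.34 in place of 0.71. Again no marker was called by edgeR, DESeq2 or limma voom, with 0% of all genes called by edgeR. None of the markers had an unadjusted p under 0.05 in edgeR, against 3.19% of all genes, and DESeq2 gave 0 and limma voom 1. Treml4 was the nearest in edgeR (unadjusted quasi-likelihood p 0.0612), and it was the only marker whose IVIg libraries all exceeded the PBS libraries, which held for 5.76% of all genes. With the exon length trend removed (Spearman 0.244 across genes), edgeR gave 2 markers below that unadjusted level, Treml4 and Ace. Leaving out 1 library at a time gave 0 to 2. Adgre4 depended on the library of low depth: without FcgRIIb knockout PBS replicate 2 its difference was 0.65, and without replicate 1 it was -0.12.

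**Figure D3:**
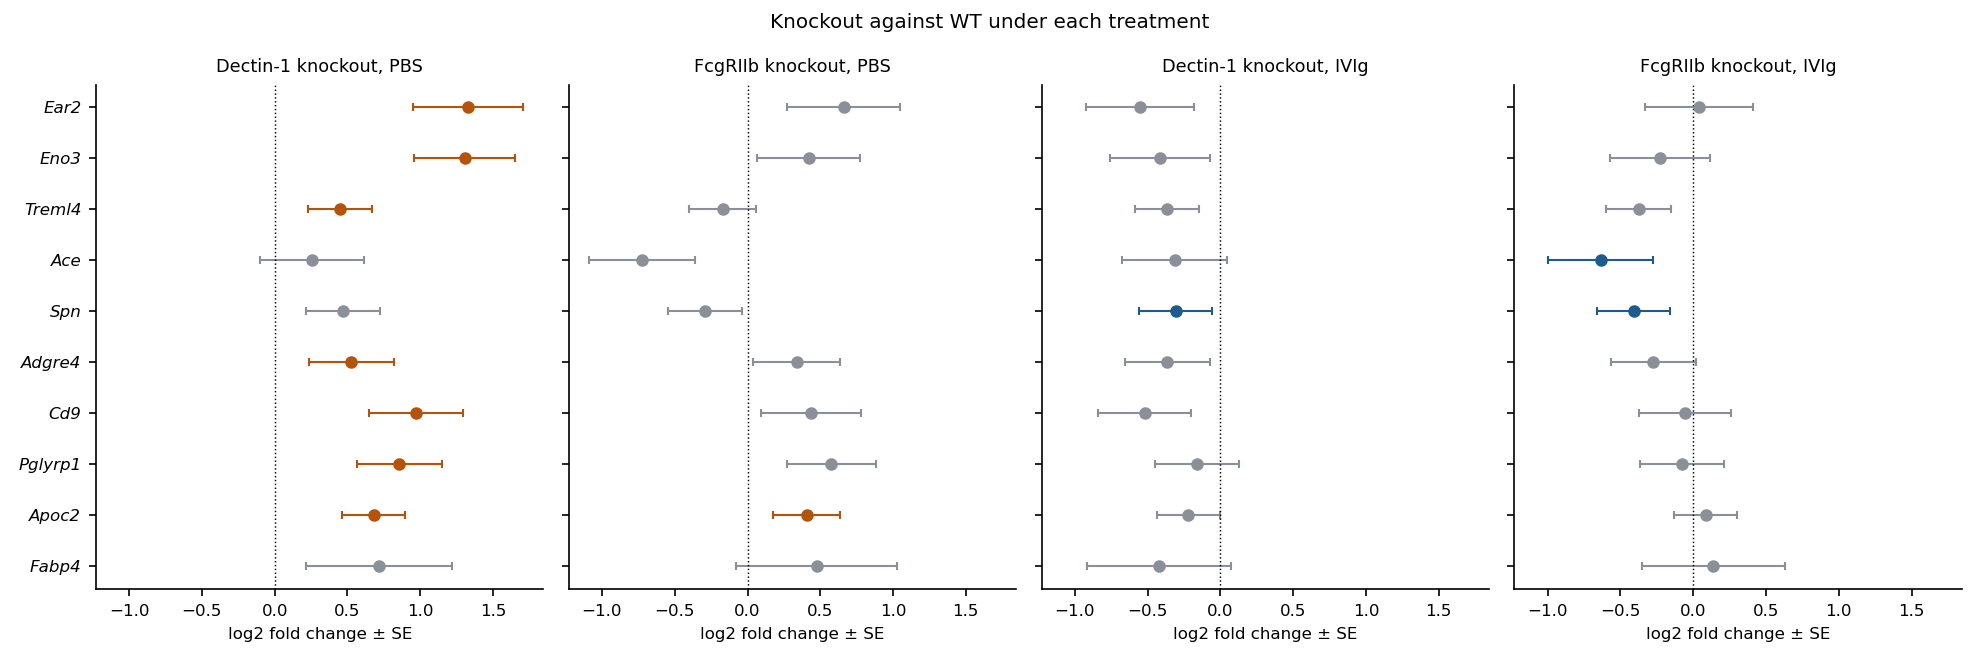
Log2 fold change of each marker in knockout against WT libraries, with its SE, for mice given PBS and mice given IVIg (3 libraries against 3, edgeR). Orange and blue points are markers whose knockout libraries all lie above or all below the WT libraries, and grey points overlap. Dectin-1 knockout PBS values are all above 0, and Dectin-1 knockout IVIg values are all below 0.

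The genotypes were also compared within a treatment. With PBS, all 10 markers had a higher mean in Dectin-1 knockout than in WT mice, with a median log2 difference of 0.70 against -0.02 over all genes. Ear2 (1.33 ± 0.38; 461 ± 43.9 against 183 ± 42.0 CPM, SD, n = 3) and Eno3 (1.30 ± 0.35; 242 ± 38.4 against 98.003 ± 11.5 CPM) lay furthest apart, at 2.51-fold and 2.47-fold. No marker was called by edgeR (lowest adjusted p 0.715, 0.0411% of all genes called), by DESeq2 or by limma voom. An unadjusted p under 0.05 was reached by 5 markers in edgeR (Ear2, Eno3, Cd9, Pglyrp1 and Apoc2), against 1.63% of all genes in that direction, by 5 in DESeq2 and by 8 in limma voom. In 7 markers, all but Ace, Spn and Fabp4, the knockout libraries stood wholly above the WT libraries, as for 7.92% of all genes. When only the 2 groups entered the fit, edgeR called Ear2 (adjusted p 0.0453) and Eno3 (adjusted p 0.0210), and over all settings tried no marker had a lower adjusted p. Replicates 2 and 3 of this knockout group share a title code. Fold changes were related to exon length here too (Spearman -0.515 across genes), and with that trend removed Apoc2 was at 0.44 in place of 0.68 and the median was 0.63. Fabp4 ran from 0.28 without Dectin-1 knockout PBS replicate 3 to 1.36 without WT PBS replicate 2, and Treml4 was at 0.25 without WT PBS replicate 1. Without the library of low depth, or without WT PBS replicate 2, 8 markers reached an unadjusted p under 0.05.

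FcgRIIb knockout against WT mice with PBS gave a mixed picture. The mean was higher in the knockout for 7 markers, with Ear2 at 0.66 ± 0.39, and lower for Ace (-0.72 ± 0.36; -1.35 without FcgRIIb knockout PBS replicate 1 and -0.48 without replicate 2), Spn (-0.29 ± 0.25) and Treml4 (-0.17 ± 0.23). The median was 0.41 against -0.05 over all genes, and 0.11 without FcgRIIb knockout PBS replicate 3. Not one marker was called by edgeR, where 0% of all genes were, nor by DESeq2 or limma voom, and none had an unadjusted p under 0.05 by any of the 3, against 9.64% of all genes in edgeR. Apoc2 was the only marker with its knockout libraries wholly higher, as for 3.63% of all genes. The relation to exon length had a Spearman correlation of -0.593 across genes, and with that trend removed the Ear2 value was 0.19 and that of Apoc2 was -0.07.

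With IVIg, all 10 markers had a lower mean in Dectin-1 knockout than in WT mice, from -0.55 ± 0.37 for Ear2 to -0.16 ± 0.29 for Pglyrp1, with a median of -0.37 against -0.02 over all genes. No marker was called by edgeR (0.0528% of all genes called), DESeq2 or limma voom. At an unadjusted p under 0.05 edgeR and DESeq2 had 0 markers and limma voom 2, against 3.46% of all genes in edgeR. Spn was the only marker whose knockout libraries all lay below WT, as for 3.70% of all genes. Without WT IVIg replicate 2 the median was -0.11, and Ear2, Cd9, Pglyrp1 and Fabp4 then had values of 0.01, 0.12, 0.08 and 0.33.

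FcgRIIb knockout against WT mice with IVIg gave differences nearer to 0 for most markers, with a median of -0.15 against -0.02 over all genes, and 0.04 without FcgRIIb knockout IVIg replicate 3. Ace (-0.64 ± 0.36) and Spn (-0.41 ± 0.25) were furthest below WT and were the 2 markers without overlap, as for 4.55% of all genes in that direction. The value of Ear2 was close to 0 (0.04 ± 0.37). Fold changes were related to exon length (Spearman -0.508 across genes), and with that trend removed the median was -0.23 and Ear2 was at -0.14. No marker was called by edgeR (0.0117% of all genes called), DESeq2 or limma voom, and none reached an unadjusted p under 0.05 in these tools, against 5.45% of all genes in edgeR.

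Whether the response to IVIg differed between genotypes was tested as an interaction, the IVIg difference in the knockout less that in WT. For Dectin-1 knockout all 10 markers had a negative interaction, with a median of -0.96 against 0.00 over all genes. Ear2 (-1.88 ± 0.53), Eno3 (-1.72 ± 0.49) and Cd9 (-1.49 ± 0.45) were furthest from 0 and Ace (-0.57 ± 0.51) was nearest. Without WT IVIg replicate 2, Cd9 was at -0.85 and Fabp4 at -0.38 in place of -1.14. Ace was at -0.30 without WT PBS replicate 1. None was called by edgeR (lowest adjusted p 0.999, 0% of all genes called), DESeq2 or limma voom. An unadjusted p under 0.05 was found for 8 markers in edgeR, all but Ace and Fabp4, against 1.94% of all genes with a negative value, for 6 in DESeq2 and for 8 in limma voom. That count was 4 without WT IVIg replicate 2, with a median of -0.71, 4 without WT PBS replicate 1, and 5 without Dectin-1 knockout PBS replicate 3. The WT response and the higher level of Dectin-1 knockout PBS mice both enter this term through WT PBS. The relation to exon length had a Spearman correlation of 0.422 across genes, and with that trend removed the median was -0.88.

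For FcgRIIb knockout the interaction was negative for 9 markers, from -0.65 ± 0.42 for Pglyrp1 to -0.12 ± 0.36 for Spn, and positive for Ace (0.09 ± 0.51). The median was -0.41 against 0.01 over all genes. No marker was called by edgeR (0% of all genes called), DESeq2 or limma voom, and none reached an unadjusted p under 0.05 in the 3 tools, against 2.86% of all genes in edgeR. Without WT IVIg replicate 2 the median was -0.03. Values were related to exon length here too (Spearman 0.438 across genes). With that trend removed Ear2 was at -0.34 in place of -0.62 and Apoc2 at -0.01 in place of -0.32. Spn (-0.22), Fabp4 (-0.45) and Adgre4 (-0.63) then lay further from 0 than before.

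**Figure D4:**
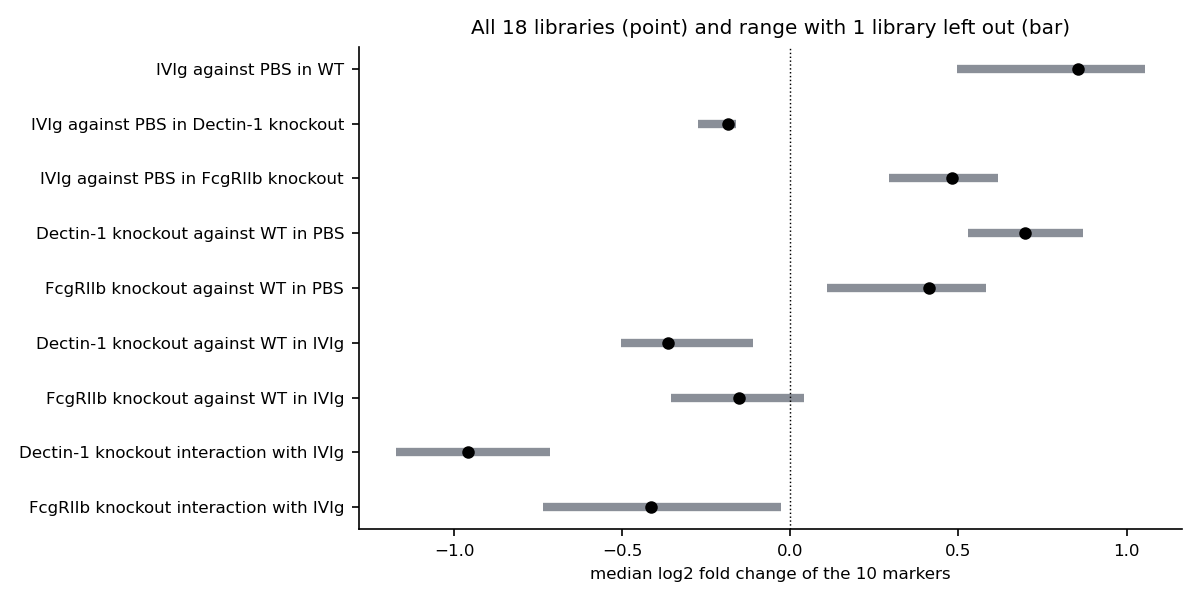
Median log2 fold change of the 10 markers in each of the 9 comparisons, from all 18 libraries (point) and the range when each library is left out in turn (bar). The median for IVIg in WT mice runs from 0.50 to 1.05, and that of the Dectin-1 knockout interaction from -1.17 to -0.71. The bar of FcgRIIb knockout against WT with IVIg reaches across 0, from -0.36 to 0.04.

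To set the libraries side by side, the log2 CPM of each marker was scaled to mean 0 and SD 1 over the 18 libraries and averaged over the 10 markers. The averages were -1.42, -0.36 and -1.03 in WT PBS and -0.15, 1.55 and 0.51 in WT IVIg. Dectin-1 knockout mice gave 0.35, 0.61 and 0.69 with PBS and 0.08, 0.23 and -0.18 with IVIg. FcgRIIb knockout mice gave -0.85, -0.78 and -0.31 with PBS and 0.61, 0.63 and -0.16 with IVIg. WT PBS held the lowest 2 libraries and WT IVIg the highest, and the Dectin-1 knockout PBS libraries lay above the Dectin-1 knockout IVIg libraries without overlap. Of the single libraries, WT IVIg replicate 2 and Dectin-1 knockout IVIg replicate 2 exceeded all WT PBS libraries in each of the 10 markers, and FcgRIIb knockout PBS replicate 2 did so in 4 and lay below all of them in 3. The share of all genes that did so is not given here, so these counts only describe the libraries.

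**Figure D5:**
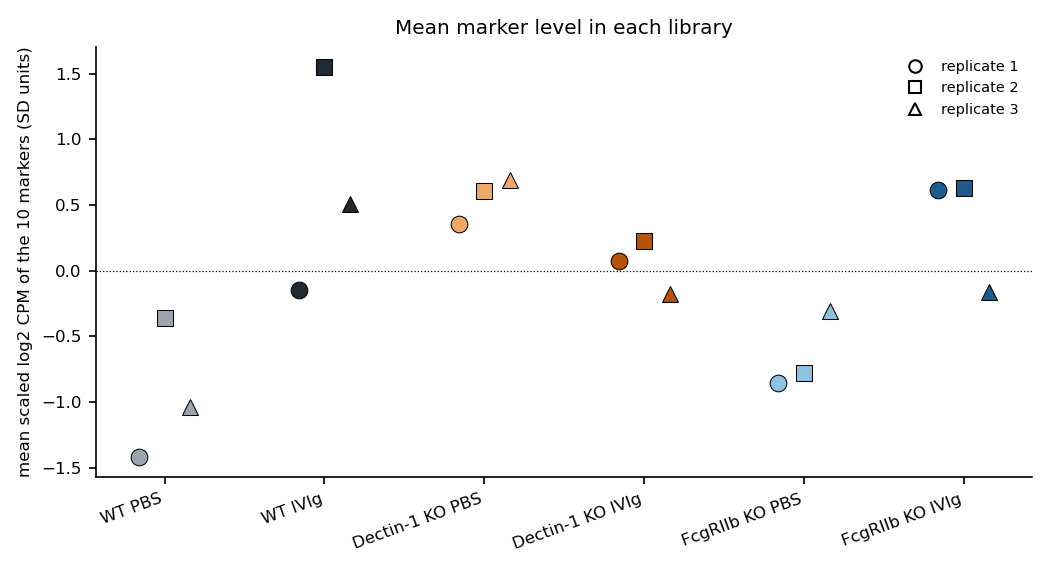
Mean of the scaled log2 CPM of the 10 markers in each library, by group (KO, knockout). Symbols give the replicate number and 0 is the mean over the 18 libraries. WT IVIg replicate 2 stands at 1.55, and WT PBS replicate 1 at -1.42.

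The markers did not all follow one another. Over the 18 libraries Pearson's r of log2 CPM had a median of 0.58 over the 45 pairs, from -0.10 to 0.89, as a description that rests on shared libraries and depth. Ear2 and Cd9, the pair with the printed promoters, had 0.89, and Ace and Spn had 0.86. Ear2 and Ace had -0.10. Some of these values depended on the library of low depth. With it left out the median was 0.665, from -0.015 to 0.937, and Ace and Spn had 0.772. Ear2 and Eno3 then had 0.861 in place of 0.404, and Eno3 and Adgre4 0.665 in place of -0.029. Within groups the median was 0.31, and 0.50 when the library of low depth was left out as well. The Ear2 and Cd9 pair kept 0.81 within groups, and the Ear2 and Ace pair had -0.54 there.

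Of 21 other genes of non-classical monocytes, listed with earlier results of these data known, 0 were called in any comparison by edgeR. Csf1r is on this list and among the monocyte identity genes. Of all genes tested, 46.8% to 53.0% had a positive value, depending on the comparison. With IVIg in WT mice 19 of the 21 had a higher mean (median log2 difference 0.29), and 7 of 21 had an unadjusted p under 0.05 in either direction, against 428 of the 17040 genes tested. In Dectin-1 knockout mice 4 of 21 were higher (median -0.08) and in FcgRIIb knockout mice 17 of 21 (median 0.24). Cd300e, an activating receptor of the CD300 family, stood at 75.7, 152 and 137 CPM in WT PBS and at 237, 339 and 228 CPM in WT IVIg. Its log2 difference was 1.14 ± 0.27 (unadjusted p 0.000492, adjusted p 1), and the groups did not overlap. Cd36, a scavenger receptor for lipids, had 112, 189.9 and 85.2 CPM in WT PBS and 159.9, 555 and 208 CPM in WT IVIg, where a single library was far above the rest.

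In Dectin-1 knockout against WT mice with PBS, 17 of the 21 were higher, led by Cd300e (1.08 ± 0.27, unadjusted p 0.000824) and Cd36 (1.36 ± 0.43, unadjusted p 0.0051). The interaction with Dectin-1 knockout was negative for 20 of 21, with Cd300e at -1.48 ± 0.38 and Cd36 at -2.13 ± 0.60. With IVIg, 1 of 21 was higher in either knockout than in WT mice. In Dectin-1 knockout mice Cd36 (-0.88 ± 0.42) and the survival gene Bcl2 (-0.77 ± 0.42) had the smallest unadjusted p for IVIg. In FcgRIIb knockout mice these were S1pr5 (0.53 ± 0.20), a receptor for sphingosine 1-phosphate, and Bcl2 (1.05 ± 0.49). S1pr5 (-0.49 ± 0.20) and Nr4a1 (-0.69 ± 0.30), the regulator named above, were lowest by p in FcgRIIb knockout against WT mice with PBS, where 8 of 21 were higher. With IVIg S1pr5 (-0.43 ± 0.19) and the integrin gene Itgal (-0.59 ± 0.28) had that place, and in Dectin-1 knockout mice Cd36 (-0.77 ± 0.42) and Dusp16 (-0.55 ± 0.31). The FcgRIIb knockout interaction was positive for 8 of 21, with Gngt2 (-0.70 ± 0.40) and Stap1 (-0.67 ± 0.45) first by p.

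Of the 12 classical monocyte genes, 0 were called in any comparison, and 2 had a higher mean with IVIg in WT mice (median -0.26), where 51.1% of all genes tested did. That share of all genes lay between 46.8% and 53.0% in the comparisons that follow. For IVIg, 5 of 12 were higher in Dectin-1 knockout (median -0.05) and 2 of 12 in FcgRIIb knockout mice (median -0.15). With PBS, 6 of 12 were higher in Dectin-1 knockout and 8 of 12 in FcgRIIb knockout than in WT mice. With IVIg, 11 of 12 were higher in Dectin-1 knockout (median 0.24) and 8 of 12 in FcgRIIb knockout mice (median 0.33). By library, the classical sum was 21203, 13040 and 13462 CPM in WT PBS and 11819, 8885 and 13697 CPM in WT IVIg, so the groups overlapped.

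By Pearson's r with the mean scaled marker level over the 18 libraries, the most alike of 9146 genes outside the set were Sh2d1b1 (0.881), Cd300e (0.874), Abhd12 (0.864), Lair1 (0.855), Lilra5 (0.835), Cd82 (0.827), Fcgr4 (0.821), Slc41a3 (0.817), Ctsb (0.816) and Bola3 (0.808). Cd300e and Fcgr4, an activating Fc gamma receptor of patrolling monocytes, are also on the list of 21. By Spearman's rank correlation 5 of these 10 stayed among the first 10, and without the library of low depth 6 did, with Sh2d1b1 first. Sh2d1b1 had 29.96 ± 4.42 CPM in WT PBS, 56.2 ± 23.5 in WT IVIg and 60.8 ± 10.7 in Dectin-1 knockout PBS mice (SD, n = 3).

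Genes that mark other cells were summed in each library, and their part in the marker levels was not tested. Endothelial genes (6, relevant to Ace and Fabp4) summed to between 5.94 and 21.9 CPM, with Vwf the highest by median, while Cdh5 had a median of 0.235 CPM and Tie1 of 0.0678 CPM. The 3 adipocyte genes, relevant to Fabp4, summed to at most 0.742 CPM, with Cidec at 0 in 17 libraries. The 5 platelet genes, relevant to Cd9, summed to at most 1.64 CPM, and Pf4 was at 0 in 14 libraries. T cell genes (5) summed to between 1.07 and 19.0 CPM, and B cell genes (4) to between 18.6 and 72.7 CPM. Splenic macrophage genes (6) summed to between 127.2 and 219.1 CPM, mostly Hmox1, and dendritic cell genes (5) to between 215.0 and 488 CPM, with Flt3 up to 216 CPM and Cd209a up to 379 CPM. WT IVIg replicate 2 held the highest dendritic cell sum and the highest Flt3, while WT IVIg replicates 1 and 3 summed to 282 and 296 CPM. The FcgRIIb knockout PBS libraries summed to between 405 and 460 CPM. Outside the Dectin-1 knockout IVIg group, neutrophil genes summed to between 3.42 and 120.4 CPM and eosinophil genes to between 0 and 6.63 CPM.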

How the data were processed

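The deposited table holds raw counts of read pairs per gene, made by the authors with featureCounts 2.0.2 on Ensembl 104 (GRCm39) exons, per the file headers. Per its command, a pair overlapping several genes was assigned to all of them, without regard to strand, so overlapping genes are not separated. STAR and edgeR are named in the submitters' processing notes. Of its columns, 18 matched the libraries and 18 others were not used. Rows without a symbol (1492 of 55416) stayed in the library totals, at 0.125% to 0.450% of counts.

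The counts were fitted with edgeR 4.0.16 in R 4.3.3 (TMM scaling, filterByExpr, quasi-likelihood F-test) as 1 model over 18 libraries in 6 groups with 12 residual degrees of freedom. Each of 9 comparisons was adjusted by Benjamini-Hochberg over 17040 genes and called at 0.05. The SE is the absolute log2 fold change divided by the square root of its F statistic. CPM are TMM-scaled, and log2 CPM use a prior count of 2. The script was tested on simulated data. Alternatives were DESeq2 1.42.0, limma 3.58.1 voom with quality weights, RLE factors, no count filter, the legacy fit, own groups only, a length trend removed, the most alike WT pair left out, and each library left out. The counts of markers at an unadjusted p were added to the alternatives after seeing the data.

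The markers and gene lists were chosen with earlier results of these data known. Named are all 10 markers, up to 6 called genes of the other non-classical list or else the 2 with the smallest p, and the 10 genes most like the markers (at least 5 CPM on average). The 1 called gene of the other lists, a neutrophil gene, is counted but not named. Replicate numbers follow the order of deposition and only name libraries.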

Additional observations from a re-analysis of the deposited data

How the results depend on the processing

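No marker changed its call under the alternatives except when only the 2 groups compared were fitted, where Ear2 (1.33) and Eno3 (1.30) were called, 2 markers in all, in Dectin-1 knockout against WT with PBS. Of 2349 results under 26 settings, 2290 kept direction and call, 57 changed direction and 2 became called. The library of 719494 counts limits FcgRIIb knockout PBS. No paired analysis was possible because the labels carry no replicate numbers and the numbers used follow the order of deposition. Where a value moved, the cause was not tested, beyond fewer libraries where libraries were left out.

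With IVIg in WT mice, 1 gene was called in all, and 0 with the legacy fit, limma voom, own groups only or the alike WT pair left out. DESeq2 called 2 genes for IVIg in Dectin-1 knockout (1 with no count filter), 13 in FcgRIIb knockout, 14 in Dectin-1 knockout against WT with PBS, 175 in FcgRIIb knockout against WT with PBS, 23 in Dectin-1 knockout against WT with IVIg, and 1 in each interaction. Dectin-1 knockout against WT with PBS gave 7, and 12 with voom and 16 without the alike pair. FcgRIIb knockout against WT with PBS gave 0, and 10 with no filter and 8 with own groups only. Dectin-1 knockout against WT with IVIg gave 9, and 15 with no filter and 5 with own groups only. FcgRIIb knockout against WT with IVIg gave 2, and 1 with RLE, the legacy fit, voom, own groups only or without the alike pair.

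With voom the marker median was 0.082 for FcgRIIb knockout against WT with PBS and -0.12 for its interaction. Voom reversed Fabp4 for IVIg in Dectin-1 knockout (0.10), Adgre4 (-0.16) and Fabp4 (-0.072) for FcgRIIb knockout against WT with PBS, Ear2 (-0.031), Cd9 (0.13) and Apoc2 (-0.13) with IVIg, and Fabp4 (0.19) in the FcgRIIb knockout interaction. Removing the length trend reversed Apoc2 (-0.071) for FcgRIIb knockout against WT with PBS, Ear2 (-0.14) and Apoc2 (-0.085) with IVIg, and Ace (-0.033) in that interaction. Leaving out the alike pair reversed Ear2 (-0.30), Apoc2 (-0.12) and Fabp4 (-0.16) for FcgRIIb knockout against WT with IVIg, and Ace (-0.029) in the interaction. Without that pair, 1 marker had an unadjusted p under 0.05 for IVIg in Dectin-1 knockout. In Dectin-1 knockout against WT with IVIg, 2 did.

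Leaving out each library gave ranges. For IVIg in WT mice the median ran from 0.50 to 1.05, genes called from 0 to 1 and markers at an unadjusted p under 0.05 from 3 to 10. Markers at that level ran from 0 to 1 for IVIg in Dectin-1 knockout and from 0 to 2 in FcgRIIb knockout. The range was also 0 to 2 for FcgRIIb knockout against WT with PBS and for Dectin-1 knockout against WT with IVIg. It was 0 to 1 for FcgRIIb knockout against WT with IVIg and for the FcgRIIb knockout interaction. For IVIg in Dectin-1 knockout, genes called ran from 0 to 13, Ace from -0.12 to 0.30, Fabp4 from -0.29 to 0.37 and Pglyrp1 from -0.22 to 0.18. For IVIg in FcgRIIb knockout, genes called ran from 0 to 1 and Adgre4 from -0.12 to 0.65. For Dectin-1 knockout against WT with PBS, Ace ran from -0.012 to 0.45. For FcgRIIb knockout against WT with PBS, genes called ran from 0 to 40, the median from 0.11 to 0.58 and Adgre4 from -0.20 to 0.58. For Dectin-1 knockout against WT with IVIg, genes called ran from 6 to 28, Apoc2 from -0.42 to 0.060, Cd9 from -0.79 to 0.12, Ear2 from -0.88 to 0.014, Fabp4 from -0.71 to 0.33 and Pglyrp1 from -0.39 to 0.083. For FcgRIIb knockout against WT with IVIg, genes called ran from 1 to 6, Apoc2 from -0.12 to 0.36, Cd9 from -0.33 to 0.58, Ear2 from -0.30 to 0.60, Eno3 from -0.44 to 0.036, Fabp4 from -0.26 to 0.89 and Pglyrp1 from -0.36 to 0.17. For the FcgRIIb knockout interaction the median ran from -0.74 to -0.029, Ace from -0.17 to 0.71, Cd9 from -0.77 to 0.15, Fabp4 from -0.99 to 0.42, Spn from -0.36 to 0.13 and Treml4 from -0.34 to 0.044.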

Other observations

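Pou2f2, a transcription factor gene on the list of other non-classical genes, was singled out after its values were seen. It stood at 405 CPM in WT PBS replicate 3 and at 411 CPM in WT IVIg replicate 1, the most alike pair of libraries, and between 24.6 and 182 CPM in the other 16. In the same pair, Ear2 was measured at 135 and 194 CPM, Cd9 at 35.8 and 60.7 CPM and Fabp4 at 23.7 and 39.1 CPM, while Ace stood at 1584 and 2113 CPM.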
